A study of Mus musculus with 12 samples.

Results

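The 4 opioid receptor genes and 3 precursor genes of opioid and tachykinin peptides were followed in mouse striatum through 2 assays, RNA-seq and CLIP-seq of the RNA-binding protein hnRNP H. The genes were taken by name: the ligand precursors Penk, Pdyn and Tac1, and the receptors Oprm1, Oprd1, Oprk1 and Oprl1. They are 7 of the 18208 genes in the RNA-seq table and hold 39 of the 147438 CLIP positions, which are windows of 100 nt along a gene. All animals were C57BL/6J wild type mice aged 50 to 100 days, bred from males heterozygous for an Hnrnph1 mutation and C57BL/6J females. Every mouse was injected with saline on days 1 and 2; on day 3 the saline group was given saline again and the methamphetamine group 2 mg/kg of the drug, and whole striata were collected 30 min later. Each of the 3 pools per treatment combined striata of 4 mice, 2 female and 2 male, and a portion of each pool was set aside for RNA-seq before the rest was cross-linked for CLIP-seq. Recovered RNA-seq reads numbered 3935160 to 5091839 per library and CLIP reads in counted windows 423057 to 1635338.

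Striatal projection neurons fall into a direct-pathway type, which carries the dopamine receptor Drd1 and makes Pdyn and Tac1, and an indirect-pathway type, which carries Drd2 and makes Penk. Penk encodes proenkephalin, whose cutting releases enkephalins; Pdyn encodes prodynorphin, the source of dynorphins; Tac1 encodes the precursor of substance P and neurokinin A. Enkephalins act mainly on the delta and mu receptors (Oprd1, Oprm1) and dynorphins on the kappa receptor (Oprk1), while Oprl1 encodes the nociceptin receptor, and all 4 receptors couple to inhibitory G proteins. hnRNP H is a nuclear RNA-binding protein that recognises runs of G and takes part in splicing and polyadenylation, and CLIP-seq reads mark RNA that was cross-linked to it.

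The libraries fell into 2 sets along the first principal component of the RNA-seq values, and the CLIP libraries fell into the same sets. Set A held saline pools 1 and 3 and methamphetamine pool 2; set B held saline pool 2 and methamphetamine pools 1 and 3. The sets were read from the data, cut across treatment and correspond to no labelled batch. Summed levels of 8 genes shared by both projection neuron types, Ppp1r1b and Adcy5 among them, were 10680 to 12210 CPM in set A and 7258 to 8016 CPM in set B, and 7 of the 8 were higher in every set A library. In the other direction, 4 of 6 astrocyte markers and 4 of 8 cortical excitatory neuron markers were higher in every set B library. Over all genes, 18.9% were higher in every set A library and 19.9% in every set B library. The cortical sum ranged from 190.1 to 450.9 CPM in set A and from 475.4 to 879.3 CPM in set B, and the astrocyte sum from 2217 to 2403 CPM and from 3073 to 3495 CPM. For 5 direct-pathway genes without Pdyn and Tac1 the sum was 185.5 to 224.8 CPM in set A, a range that held all 3 set B sums, and 0 of the 5 separated by set. For 6 indirect-pathway genes without Penk the sums were 1186 to 1318 CPM in set A and 979.1 to 1050 CPM in set B. For 3 striosome genes the sums were 192.1 to 242.8 and 201.1 to 228.6 CPM, for 8 interneuron genes 432.1 to 527.3 and 499.8 to 732.6 CPM, and for 6 microglial genes 208.5 to 229.1 and 246.0 to 285.8 CPM. Oligodendrocyte sums (6 genes) overlapped, at 4851 to 11910 and 6477 to 11750 CPM, and the choroid plexus sum (6 genes) reached 5253 CPM in methamphetamine pool 2 against 136.0 to 276.9 CPM in the other libraries. No marker counted here was at 0 in any library.

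Sequences are shown for the listed Penk windows, which lie in its coding part and its 3′ UTR. The precursor repeats an opioid core, the codons for tyrosine, glycine, glycine and phenylalanine followed by methionine (Met-enkephalin) or leucine (Leu-enkephalin). Reading the coding frame found 7 such units, shown 5′ to 3′ on the coding strand, which is the minus strand of GRCm38, with any run of at least 3 G in capitals:
Penk unit 1, chr4:4134334-4134348: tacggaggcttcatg
Penk unit 2, chr4:4134313-4134327: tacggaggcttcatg
Penk unit 3, chr4:4134226-4134240: tatggcggcttcatg
Penk unit 4, chr4:4134073-4134087: tatGGGGGcttcatg
Penk unit 5, chr4:4134001-4134015: tacGGGGGcttcatg
Penk unit 6, chr4:4133941-4133955: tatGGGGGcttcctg
Penk unit 7, chr4:4133848-4133862: tacGGGGGctttatg

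In 4 of the 7 units, units 4 to 7, the 2 glycine codons gave a run of 5 G; in the other 3 units they held at most 2 G in a row. The authors' deposited peak lists place hnRNP H peaks over 3 of these 7 Penk units, units 4, 5 and 6. Unit 7 also carries the run and lay in no listed peak. The 2 listed windows over these units are printed whole, since they are the Penk coding windows where hnRNP H peaks and opioid units coincide, with G runs of at least 3 in capitals:
Penk coding window, chr4:4134032-4134131, minus strand: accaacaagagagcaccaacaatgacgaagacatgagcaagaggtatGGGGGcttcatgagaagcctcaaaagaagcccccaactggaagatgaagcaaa
Penk second coding window, chr4:4133932-4134031, minus strand: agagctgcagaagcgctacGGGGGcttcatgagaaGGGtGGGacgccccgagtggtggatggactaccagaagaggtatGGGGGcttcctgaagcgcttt

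The first window has 1 G run and the second has 4, and the longest run is 5 G in each. Among 3996 listed positions of all genes that lay within 1 exon, 81.6% held a run of at least 3 G and 22.5% a run of at least 5 G, with a median of 2 runs and 30 G per 100 nt. The first Penk window had 26 G per 100 nt and the second 40. A run of G is a description of these windows and was not tested as a binding site. Outside coding sequence, 2 further listed windows held runs of 3 G, 1 in Penk and 2 in Oprl1, of which 1 each is shown with the bases around it; the other listed 3′ UTR window of Penk, chr4:4133732-4133831, held none:
Penk 3′ UTR, chr4:4133668-4133697, minus strand: aagctgtgattttaGGGtctgtgttctttt
Oprl1 5′ UTR, chr2:181715737-181715766, plus strand: tcctgccccattctGGGaggtcttgtatgg

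The RNA-seq comparison asked whether a transcript differed 30 min after methamphetamine. None of the 7 passed an adjusted p of 0.05 with limma and Benjamini-Hochberg adjustment over all genes, where 0 of 18208 genes passed (0.0%). Likewise 0 of 7 had an unadjusted p below 0.05, against 276 of 18208 genes (1.52%). Changes were negative for 5 of the 7, with a median of -0.14 on the log2 scale, and 49.6% of all genes had a negative change, with a median of 0.0020. In bulk striatum, fewer cells of a type and less RNA per cell cannot be told apart.

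Penk, the enkephalin precursor, was the 1 member whose treatments did not overlap on the deposited log2 CPM scale. Its level was 9.47, 9.51 and 9.24 log2 CPM in saline pools 1 to 3 and 9.03, 9.14 and 9.16 log2 CPM in methamphetamine pools 1 to 3. All methamphetamine pools were below all saline pools, a pattern without overlap that 6.01% of all genes showed in one direction or the other. The log2 change was -0.30 (SE 0.17, 95% interval -0.68 to 0.09, limma adjusted p = 0.9998). Within set A methamphetamine minus saline was -0.21 and within set B -0.41. Reads behind these levels were 2520, 3446 and 2438 in saline and 2612, 2472 and 2965 in methamphetamine pools. The library size behind the deposited values was 0.860 times the recovered reads in saline pool 3 and 1.02 times in methamphetamine pool 1. Scaled by plain library totals instead, Penk in saline pool 3 lay below methamphetamine pools 1 and 3, so the treatments overlapped. The log2 change was then -0.21. Penk overlaps the gene A830012C17Rik on the opposite strand, and whether counting used strand is not given in the sources used here, so its reads may include some of that gene.

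Pdyn, the dynorphin precursor, had 7.19, 6.96 and 6.59 log2 CPM in saline pools 1 to 3 and 6.45, 6.37 and 7.29 log2 CPM in methamphetamine pools 1 to 3. The highest of the 6 values was methamphetamine pool 3 and the lowest methamphetamine pool 2, so the treatments overlapped. Its log2 change was -0.21 (SE 0.26, 95% interval -0.81 to 0.39, limma adjusted p = 0.9998), with -0.52 within set A and -0.09 within set B.

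Tac1, the substance P precursor, followed the library sets and not the treatments. It measured 7.92, 7.34 and 7.91 log2 CPM in saline pools 1 to 3 and 7.51, 7.87 and 7.57 log2 CPM in methamphetamine pools 1 to 3. All 3 set A libraries were above all 3 set B libraries, as for 18.9% of all genes. The log2 change with treatment was -0.07 (SE 0.20, 95% interval -0.53 to 0.38, limma adjusted p = 0.9998), with -0.05 within set A and 0.20 within set B.

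The dopamine receptors that mark the cells making these peptides were measured beside them. Drd1 had 7.26 to 7.46 log2 CPM in saline and 7.11 to 7.24 in methamphetamine pools, with a log2 change of -0.15 (limma adjusted p = 0.9998). These ranges did not overlap, as for 6.01% of all genes. The sum of the 5 direct-pathway markers, Drd1 among them, was 212.3 to 224.8 CPM in saline and 185.5 to 204.0 CPM in methamphetamine pools, also without overlap. Scaled by plain library totals instead, saline pool 3 lay below methamphetamine pool 1 for both Drd1 and this sum, so the treatments overlapped. For the 6 indirect-pathway markers the sum was 1050 to 1318 CPM in saline and 979.1 to 1186 CPM in methamphetamine pools. Drd2 was higher in every set A library than in any set B library, and its log2 change was -0.29 (limma adjusted p = 0.9998). Their part in the Penk, Pdyn and Tac1 values was not tested.

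**Figure D1:**
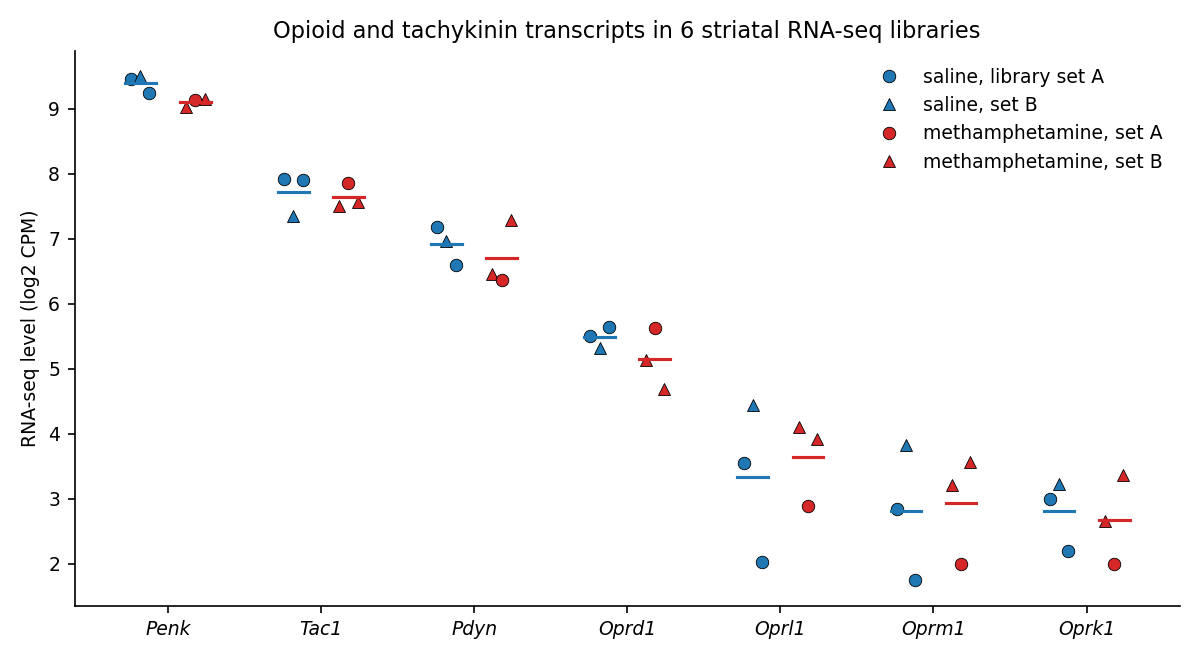
RNA-seq level in log2 CPM (vertical axis) of the 7 genes in each of 6 libraries, coloured by treatment, with circles for set A and triangles for set B and a bar for the mean of each treatment (n = 3 pools). Penk is the gene whose methamphetamine points (9.03 to 9.16) all lie below its saline points (9.24 to 9.51); in Tac1 and Oprd1 the circles lie above the triangles, and in Oprl1 and Oprm1 the triangles lie above the circles.

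Among the receptors, Oprd1 (delta) was the most abundant and also sat higher in set A. Its levels were 5.50, 5.32 and 5.64 log2 CPM in saline pools 1 to 3 and 5.13, 5.63 and 4.70 log2 CPM in methamphetamine pools 1 to 3. Methamphetamine pool 3 was the lowest and methamphetamine pool 2 lay among the saline pools. The log2 change was -0.34 (SE 0.24, 95% interval -0.88 to 0.21, limma adjusted p = 0.9998), with 0.05 within set A and -0.41 within set B.

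Oprm1, the mu receptor of morphine and enkephalin, had few reads and was higher in set B. It had 2.84, 3.83 and 1.74 log2 CPM in saline pools 1 to 3 and 3.22, 2.00 and 3.57 log2 CPM in methamphetamine pools 1 to 3, from 25, 67, 13, 46, 17 and 61 reads in that order. Every set B library exceeded every set A library, by 1.34 on the log2 scale on average, a separation in that direction that 19.9% of genes showed. The change with treatment was 0.12 (SE 0.57, 95% interval -1.17 to 1.41, limma adjusted p = 0.9998), while within both sets it was negative, -0.29 in set A and -0.44 in set B. Oprm1 shares exon bases with Ipcef1 on the opposite strand, which had 39, 119, 27, 109, 55 and 197 reads in the same library order and the same split by set. Without knowledge of strand in the counting, the Oprm1 values are uncertain.

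Oprl1, the nociceptin receptor, showed the same separation as Oprm1. Its levels were 3.54, 4.44 and 2.03 log2 CPM in saline pools 1 to 3 and 4.11, 2.89 and 3.92 log2 CPM in methamphetamine pools 1 to 3. Set B exceeded set A in every library, by 1.33 on the log2 scale. The treatment change was 0.30 (SE 0.57, 95% interval -0.99 to 1.60, limma adjusted p = 0.9998), with 0.10 within set A and -0.42 within set B.

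Oprk1, the kappa receptor of dynorphin, was the least abundant member per length. It had 3.00, 3.23 and 2.20 log2 CPM in saline pools 1 to 3 and 2.65, 2.00 and 3.37 log2 CPM in methamphetamine pools 1 to 3. Its values overlapped between treatments and between sets. Its log2 change was -0.14 (SE 0.43, 95% interval -1.10 to 0.83, limma adjusted p = 0.9998), with -0.60 within set A and -0.22 within set B.

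The 4 members that separated by set were thus Tac1 and Oprd1, higher in set A, and Oprm1 and Oprl1, higher in set B. Of all genes, 18.9% were higher in every set A library and 19.9% in every set B library. The library size behind the deposited values was 0.860 to 0.904 times the recovered reads in set A and 1.01 to 1.02 times in set B. Relative to set B, set A values thus stand higher than with plain library totals. The set separations were not examined with plain totals. Sums of the genes shared by both projection neuron types and of the indirect-pathway genes were also higher in set A, while direct-pathway sums overlapped. Astrocyte, cortical and microglial sums were higher in set B. The part of those cell types in these levels was not tested. Over the 6 libraries, as a description that carries the set difference, Pearson's r was 0.956 between Oprm1 and Oprl1, 0.905 between Oprm1 and Oprk1, -0.86 between Tac1 and Oprm1 and -0.83 between Tac1 and Oprl1. The ligand Pdyn and its receptor Oprk1 had r = 0.871, while Penk had r = 0.294 with Oprd1 and 0.258 with Oprm1.

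**Figure D2:**
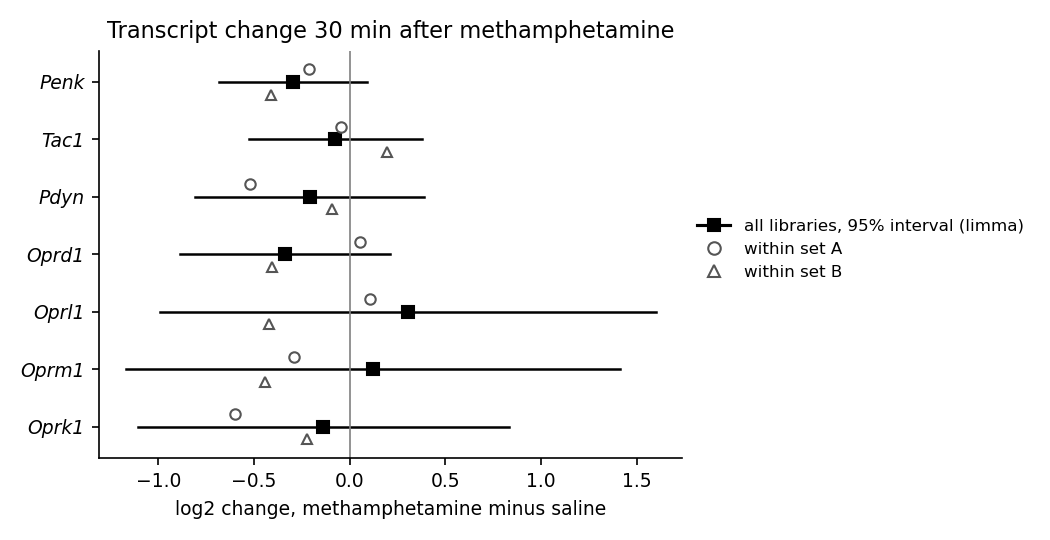
Log2 change after methamphetamine (horizontal axis, methamphetamine minus saline) for each gene, as a filled square with its 95% interval from limma over all 6 libraries; open circles and triangles are the differences within set A and set B. Every interval includes 0; the square for Oprm1 (0.12) lies above both of its within-set points (-0.29 and -0.44), while for Penk all 3 points are negative.

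To compare genes with each other, levels were divided by the length of the longest transcript. Penk had 425.5 ± 57.4 CPM per kb (SD, n = 6 libraries), rank 79 of 17927 genes with a length. Tac1 had 105 ± 17.4 and Pdyn 48.4 ± 13.1 CPM per kb, so all 3 precursors lay above the 93rd percentile, at 99.6, 97.4 and 93.7. Oprd1 followed with 10.2 ± 2.31, Oprl1 with 4.11 ± 2.09, Oprm1 with 3.39 ± 1.79 and Oprk1 with 1.495 ± 0.551 CPM per kb. The receptors thus lay at percentiles 72.0, 53.6, 50.1 and 36.2.

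Ranges over the 6 libraries did not overlap between Penk and Tac1, Tac1 and Pdyn, or Pdyn and Oprd1. Penk was 3.3 to 6.11 times Tac1 within a library, and Pdyn 2.82 to 10.2 times Oprd1. Among the receptors the ranges overlapped, although Oprd1 exceeded Oprl1 in 6 of 6 libraries and Oprm1 exceeded Oprk1 in 6 of 6. Oprl1 exceeded Oprm1 in 4 of 6 libraries, and in 6 of 6 when the length of all exons together was used, a length chosen after seeing the data, with which Oprm1 exceeded Oprk1 in 5 of 6. The order of these 3 receptors is therefore not fixed beyond their spread.

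Genes whose RNA-seq values moved most like a member were named from 7853 genes with a mean of at least 4 log2 CPM, as a description over 6 libraries. For Penk they were Gabbr1 (r = 0.978), a subunit of the GABA B receptor, Cacna2d2 (0.977), a calcium channel subunit, and Kit (0.971), a receptor tyrosine kinase. Gabbr1 followed Penk in direction over a much smaller range, from 9.81 to 9.89 log2 CPM. For Pdyn they were Entpd2 (r = 0.983), an enzyme that splits extracellular nucleotides, Atg101 (0.974), an autophagy factor, and Adora1 (0.974), the adenosine A1 receptor. For Tac1 they were Bhlhe41 (r = 0.993), a transcriptional repressor, Fiz1 (0.992) and the histone gene H3c13 (0.992), and all 3 were higher in set A. For Oprd1 they included Ptpmt1 (r = 0.993), a mitochondrial phosphatase, and Dpm1 (0.991), an enzyme of protein glycosylation.

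Other genes of opioid and tachykinin signalling were read from a list of 38, all present in the table. None passed the adjusted threshold and none had an unadjusted p below 0.05. Changes were positive for 23 and negative for 15, with a median of 0.02 on the log2 scale. By role, positive and negative numbered 2 and 2 of the other ligands, 2 and 3 of the receptors, 3 and 3 of the precursor-processing enzymes and partners, 3 and 3 of the peptidases, and 13 and 4 of the signalling genes.

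Tacr3, the neurokinin B receptor, had the smallest p of the list, from 19, 25 and 22 reads in saline and 12, 15 and 23 reads in methamphetamine pools. On the log2 CPM scale its treatments did not overlap, and its log2 change was -0.68 (SE 0.36, limma adjusted p = 0.9998). Pnoc, the nociceptin precursor and so the ligand of Oprl1, had 10, 8 and 1 reads in saline and 28, 5 and 20 in methamphetamine pools, with a log2 change of 1.28 (SE 0.84, limma adjusted p = 0.9998). Kcnj6, a potassium channel subunit opened by inhibitory G proteins, had a log2 change of 0.77 (SE 0.52, limma adjusted p = 0.9998) and was higher in set B. Kcnj9, another subunit of those channels, was named after its values were seen. It was the second of only 2 of the 38 listed genes without overlap, a pattern that 6.01% of all genes showed. Its levels were 5.48 to 5.84 log2 CPM in saline and 5.84 to 5.92 log2 CPM in methamphetamine pools, apart only before rounding.

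Among the remaining ligands and tachykinin receptors, Pomc, the beta-endorphin precursor, had 11 to 15 reads in saline and 12 to 26 in methamphetamine pools. Tacr1, the substance P receptor, had 51 to 100 reads and a log2 change of -0.24. Tac2, Tac4 and Tacr2 had at most 9 reads in any library, too few for a fold change to be read.

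In CLIP-seq the 7 genes had 471 of 5596005 reads, in 39 windows. Of these windows 4 had 0 reads in all libraries together, 14 had at most 3, and 12 had at least 10 (30.8%, against 41.3% of all windows). Introns held 23 of the windows and exons 16, whereas 80.9% of all windows were intronic. Only 2 of the 39 windows passed the edgeR filter on low counts, both in Penk; 7.03% of all windows passed. As gene sums, Penk, Oprm1 and Oprd1 passed and the other 4 did not, so their treatment change was not tested.

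Penk held 231 CLIP reads, nearly all of them in its last exon. A coding window that contains unit 4 had 90 reads, 2 windows of the 3′ UTR had 87 and 33, and 5 further windows had 1 to 9 each. The coding window had 13, 6 and 23 reads in saline pools 1 to 3 and 23, 19 and 6 reads in methamphetamine pools 1 to 3. Scaled to library totals these were 12.3, 14.2 and 14.1 CPM in saline and 25.3, 19.4 and 10.1 CPM in methamphetamine pools. Methamphetamine pools 1 and 2 were above all saline pools and pool 3 was below them. The log2 change was 0.71 (edgeR adjusted p = 0.9998), and 0 of 10358 windows tested passed (0.0%). It was 0.13 without methamphetamine pool 1.

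The 3′ UTR window chr4:4133732-4133831 had 6, 11 and 14 reads in saline pools 1 to 3 and 38, 15 and 3 reads in methamphetamine pools 1 to 3. Scaled to library totals these were 5.70, 26.0 and 8.56 CPM in saline and 41.8, 15.3 and 5.04 CPM in methamphetamine pools. One pool, methamphetamine 1, was the highest and methamphetamine pool 3 the lowest. The log2 change was 1.06 (edgeR adjusted p = 0.9998) and turned to -0.31 without methamphetamine pool 1.

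Over the whole Penk gene, CLIP reads were 23, 18 and 47 in saline pools 1 to 3 and 88, 44 and 11 in methamphetamine pools 1 to 3. After scaling, the means were 31.5 ± 12.5 CPM (SD, n = 3) in saline and 53.3 ± 40.6 CPM (SD, n = 3) in methamphetamine. Methamphetamine pool 1 was the highest and pool 3 the lowest relative to its library total, so the treatments overlapped. The log2 change was 0.81 (95% interval -0.60 to 2.21, edgeR adjusted p = 0.883), where 0 of 8177 gene sums passed (0.0%), and it was 0.03 without methamphetamine pool 1. At an unadjusted p below 0.05, edgeR gave 0 of the 3 tested members among 429 of 8177 gene sums (5.25%), and 0 of the 2 Penk windows among 347 of 10358 windows (3.35%). The 3′ UTR held 48.0% ± 18.2 (SD, n = 3) of the Penk reads in saline and 52.7% ± 16.5 (SD, n = 3) in methamphetamine pools, a difference smaller than the spread.

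Pdyn had 50 CLIP reads, of which 22 lay in its 1 coding window. That window had 0, 2 and 1 reads in saline pools 1 to 3 and 18, 1 and 0 in methamphetamine pools 1 to 3. A single library, methamphetamine pool 1, held nearly all of them, and the other pools of the same treatment were at the level of saline. An intron window held 14 further reads and the remaining 4 windows 2 to 4 each.

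Tac1 had 22 CLIP reads over 8 windows, none with more than 6. Its reads were 2, 0 and 6 in saline pools 1 to 3 and 11, 3 and 0 in methamphetamine pools 1 to 3. The pools at 0 allow up to 7.09 CPM in saline pool 2 and 5.04 CPM in methamphetamine pool 3, the value of 3 reads there, for counting error only. For all 3 precursors methamphetamine pool 1 was the library with most reads, with 38.1% of those of Penk (Wilson 95% interval 32.1 to 44.5), 48.0% of those of Pdyn (34.8 to 61.5) and 50.0% of those of Tac1 (30.7 to 69.3). That library held 16.2% of the reads of all windows. It was picked for each gene as the one with most reads, so a share above that value is partly built in. For the receptors the library with most reads was saline pool 3 (Oprm1 31.7%, Oprk1 38.1% and Oprl1 40.6%) or methamphetamine pool 2 (Oprd1 27.3%). Those libraries held 29.2% and 17.5% of the reads of all windows. Scaled to library totals, Oprm1 was highest in methamphetamine pool 2 (15.3 CPM, against 11.6 CPM in saline pool 3). Oprl1 was then highest in methamphetamine pool 3 (10.1 CPM, against 7.95 CPM in saline pool 3).

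**Figure D3:**
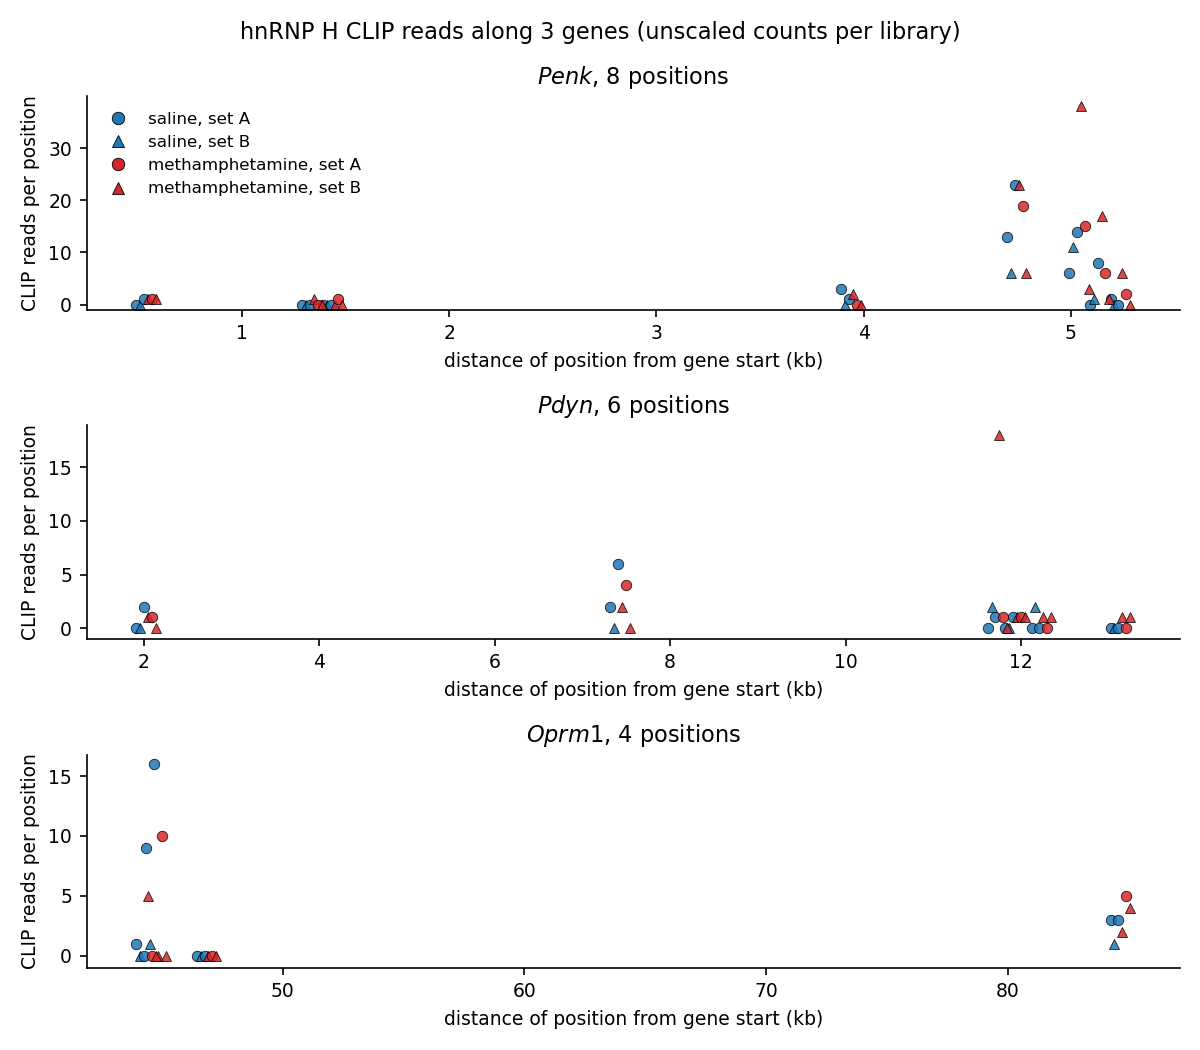
CLIP reads per window (vertical axis, unscaled counts, 1 point per library) against the distance of the window from the gene start in kb, for Penk, Pdyn and Oprm1; colours and symbols mark treatment and library set, and points of 1 window are spread sideways. Reads of Penk gather at the end of the gene, where methamphetamine pool 1 reaches 38; in Pdyn that library alone reaches 18; in Oprm1 the window with 9, 16 and 10 reads shows circles (set A) high.

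Receptor CLIP reads lay mostly outside exons for the mu and delta receptors. Oprm1 had 60 reads in 4 intron windows and none in an exon window. Its leading window, chr10:6803207-6803306, had 9, 1 and 16 reads in saline pools 1 to 3 and 0, 10 and 0 reads in methamphetamine pools 1 to 3. The 3 set A libraries held 35 of its 36 reads, and 65.6% of the reads of all windows, whereas Oprm1 RNA was higher in set B. The other Oprm1 windows with reads differed, with 1 and 5 reads in sets A and B in the first and 11 and 7 in the last. Summed over the gene, Oprm1 had 13, 2 and 19 reads in saline and 7, 15 and 4 in methamphetamine pools, with a log2 change of -0.01 (95% interval -1.27 to 1.25, edgeR adjusted p = 0.998).

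Oprd1 had 55 reads in 10 windows, 5.45% of them in exon windows. By library these were 6, 5 and 11 reads in saline pools 1 to 3 and 12, 15 and 6 reads in methamphetamine pools 1 to 3, or 8.24 ± 3.85 CPM (SD, n = 3) and 12.8 ± 2.28 CPM (SD, n = 3) after scaling. The log2 change was 0.75 (95% interval -0.50 to 2.01, edgeR adjusted p = 0.883). Oprk1 had 21 reads, all in 2 exon windows near its start, with 4, 0 and 8 in saline and 4, 3 and 2 in methamphetamine pools. One of these windows had its 10 reads in saline pools 1 and 3 (2 and 8), and the other had 2 of its 11 reads in saline and 9 in methamphetamine pools.

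Oprl1 had a single window, in its 5′ UTR, with 2 runs of at least 3 G, 1 of which is shown above. Its reads were 3, 4 and 13 in saline pools 1 to 3 and 1, 5 and 6 in methamphetamine pools 1 to 3, which is 2.85, 9.46 and 7.95 CPM and 1.10, 5.10 and 10.1 CPM. The treatments overlapped, and the highest and the lowest value both came from methamphetamine pools.

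The share of CLIP reads over the share of RNA-seq reads compares how much of a transcript was recovered with hnRNP H relative to its abundance. Among 12985 genes with at least 60 RNA-seq reads the median of this ratio was 0.403, with quartiles of 0.108 and 1.25. All 3 precursors lay below the lower quartile, with 0.0707 for Penk, 0.0811 for Pdyn and 0.0201 for Tac1, at percentiles 20.1, 21.4 and 13.8. The receptors lay higher, with 0.258 for Oprd1, 0.454 for Oprl1, 0.554 for Oprk1 and 1.32 for Oprm1, at percentiles 39.8, 53.1, 57.7 and 75.9. These ratios are over all libraries together, and by library precursors and receptors were not fully apart. In methamphetamine pool 1, Oprl1 (0.0627) lay below Penk (0.182), Pdyn (0.295) and Tac1 (0.0651). In saline pool 2, Oprk1 had no CLIP read, against ratios of 0.058 for Penk and 0.0753 for Pdyn.

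Most genes had their CLIP reads in introns, with a median of 13.3% in exon windows, while Penk had 96.5%, Pdyn 64.0% and Tac1 50.0%. With reads of exon windows only, a restriction chosen after seeing the data, Penk moved to percentile 63.0, Pdyn to 59.2 and Tac1 to 46.4. Oprk1 and Oprl1 moved to 89.1 and 87.3, and Oprd1 to 47.7 from 3 exon reads. Oprm1, with no exon read, was placed at 21.8. Genes with no exon read tie at the lowest ratio and share their mean percentile, so no gene lay below Oprm1. The order of precursors and receptors thus changed with the inclusion of introns: with all libraries together Oprm1 was the highest member over the whole gene and the lowest over exons. By library its ratio over the whole gene ran from 0.331 to 4.4, and Oprl1 exceeded it in saline pool 2 (0.435 against 0.331) and in methamphetamine pool 3 (0.658 against 0.561).

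**Figure D4:**
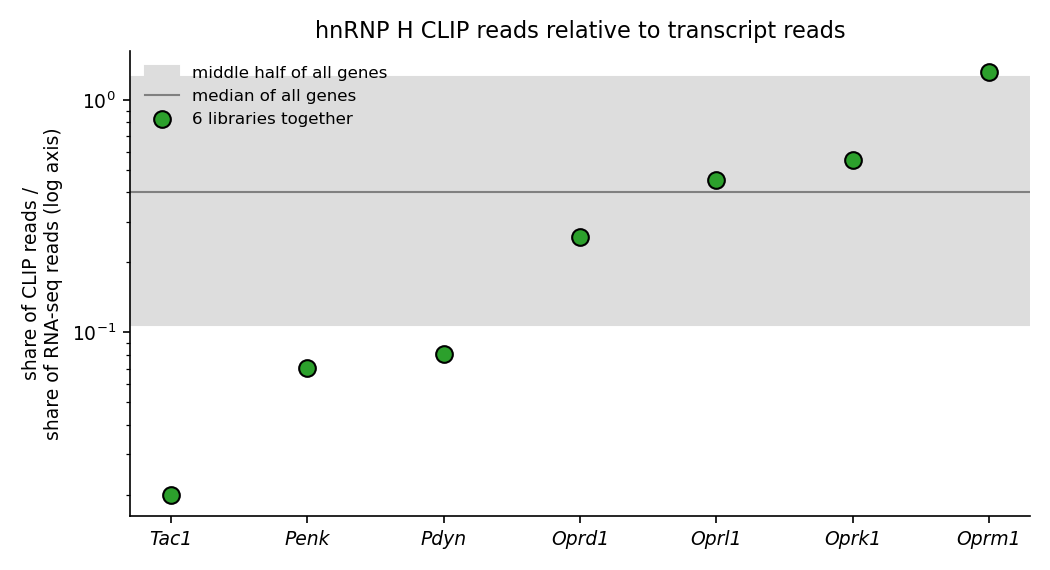
Share of CLIP reads divided by share of RNA-seq reads (vertical log axis) for each gene over 6 libraries together; the grey band spans the lower to the upper quartile of 12985 genes (0.108 to 1.25) and the line is their median (0.403). Tac1, Penk and Pdyn lie below the band, Oprd1, Oprl1 and Oprk1 within it, and Oprm1 (1.32) just above it.

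Whether CLIP changed relative to RNA within a pool was tested for the 3 genes with enough reads. The log2 change of CLIP relative to RNA was 0.79 for Penk (SE 0.70), -0.08 for Oprm1 (SE 0.85) and 0.91 for Oprd1 (SE 0.50), with a limma adjusted p of 0.997 for each. None of 7031 genes passed (0.0%), and 0 of the 3 was among the 211 genes (3.0%) with an unadjusted p below 0.05. Without methamphetamine pool 1 the Penk value was 0.18, and without methamphetamine pool 3 it was 1.38. For Oprd1 the value of CLIP minus RNA was -2.48, -1.37 and -2.51 in saline pools 1 to 3 and -1.11, -1.51 and -1.01 in methamphetamine pools 1 to 3. Saline pools 1 and 3 were the lowest, and saline pool 2 lay among the methamphetamine pools.

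The authors' deposited lists hold 1 set of peaks per treatment, so they have no replicates. The methamphetamine list held 4 windows called in these genes, 3 in Penk and 1 in Pdyn. The saline list held 5, which were 3 in Penk, 1 in Oprm1 and 1 in Oprl1. Tac1, Oprd1 and Oprk1 had none in either list. Both lists shared 2 windows, the first Penk coding window and the 3′ UTR window chr4:4133732-4133831, which is 50.0% of the 4 and 40.0% of the 5; over all genes 48.7% and 50.0% of the listed windows met the other list.

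The windows in 1 list did not all have reads to match. The Pdyn coding window stood in the methamphetamine list alone, with 18 of its 19 methamphetamine reads in pool 1. The Penk 3′ UTR window chr4:4133632-4133731 also stood in that list alone. It had 0, 1 and 8 reads in saline pools 1 to 3 and 17, 6 and 1 reads in methamphetamine pools 1 to 3. The Oprm1 intron window stood in the saline list alone, although methamphetamine pool 2 had 10 reads there, and the Oprl1 window stood in the saline list alone with 20 saline and 12 methamphetamine reads. The second Penk coding window, with units 5 and 6, stood in the saline list alone and has no count here. In the authors' deposited table its signal was 0.86, at percentile 0.807 of the saline list, so 2 of the 3 Penk units in listed peaks rest on a window near the bottom of that list. In the same deposited table of the authors the Oprl1 window had the highest signal of these, 2.76, above 88.4% of the saline list. One more listed window bears the name Oprm1 in both lists but lies on the minus strand, in an intron of Ipcef1, and was not counted for Oprm1.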

How the data were processed

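The members and all gene lists were chosen with earlier results of these data known. The submitters' processing notes name Trimmomatic, UMI-tools, STAR, bedtools, Subread, featureCounts, limma, edgeR and mm10, with no role or order; whether duplicate reads were removed from the deposited counts is not given in the sources used here. The deposited RNA-seq values are log2 CPM, per the labels on the voom scale; 100.0% of values gave whole reads within 0.01 after an offset of 0.5 reads. They were tested with limma 3.58.1 with a mean-variance trend on all genes, and p-values were adjusted by Benjamini-Hochberg at 0.05. The deposited CLIP table holds whole-number counts per window; its 172271 lines reduce to 147438 distinct positions, each used once. For counts per window and per gene, the quasi-likelihood test of edgeR 4.0.16 was used after filterByExpr and TMM scaling; CLIP minus RNA-seq log2 CPM per pool (prior count 2) was tested with limma. Each deposited peak list has a signal value, used as a score since its scale is not given, and p-values and q-values of the authors' own caller. DESeq2 1.42.0 served as an alternative; others covered scaling, filters, the pseudocount, the trend, library set, replicate block and each library left out. Gene models, regions and sequences came from GENCODE M21 on GRCm38. Transcript sequence gave windows within an exon; intron sequence was not used here.

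Named genes were the members, the other ligands and tachykinin receptors of the pathway list, the 3 genes of that list with the smallest p where fewer than 3 had p below 0.05, and the 3 genes most correlated with each member whose mean was at least 4 log2 CPM. Marker lists excluded the members. With 3 pools per treatment and 13 to 67 reads per library for Oprm1, precision is limited by both pools and depth. Wilson intervals and limits from 3 reads cover counting error only. One gene that the rule names and 1 sequence are not reported here.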

Additional observations from a re-analysis of the deposited data

How the results depend on the processing

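No count of calls across RNA-seq genes, gene sums or CLIP relative to RNA left 0 at an adjusted p of 0.05 under any alternative run, with 81 (DESeq2 on recovered reads) to 958 RNA-seq genes at an unadjusted p under 0.05. CLIP windows gave 0 calls in all but 1 alternative, and 414 with no filter beyond 1 read; the cause was not tested. Without the filter on signal both lists shared 2 windows. With signal at or above the list median the share was 0.0% for the methamphetamine list and 0.0% for the saline list, from 2 windows in each, against 43.2% and 44.0% of the windows of all genes. In the authors' deposited lists the 2 shared Penk windows passed that cut for methamphetamine (1.76 and 1.73, median 1.6). They missed it for saline (1.64 and 1.31, median 1.68), so the cut removed them from 1 list.

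Penk kept a negative RNA-seq change in all 14 alternatives, from -0.38 to -0.21, and Pdyn (-0.50 to -0.04) and Oprd1 (-0.57 to -0.11) did so too. With the library set as a covariate, the RNA-seq change of Oprl1 was -0.16, of Oprm1 -0.37 and of Tac1 0.074, each opposite to the value given in the results, and the CLIP change of Oprm1 was 0.39 per gene and 0.70 relative to RNA (the last fit added after seeing the data). DESeq2 gave -0.016 for Oprm1 RNA, and plain library totals gave 0.0084 for Tac1. Leaving out 1 library at a time gave RNA-seq ranges of -0.48 to 0.20 for Oprk1, -0.35 to 0.85 for Oprl1, -0.41 to 0.64 for Oprm1 and -0.26 to 0.022 for Tac1. For CLIP it gave -0.45 to 0.20 for Oprm1 per gene, -0.90 to 0.57 for Oprm1 relative to RNA, 0.03 to 1.19 for Penk per gene, 0.18 to 1.38 for Penk relative to RNA, 0.13 to 0.99 for the Penk coding window and -0.31 to 1.97 for the Penk 3′ UTR window. For Oprd1, leaving out 1 library gave CLIP changes of 0.51 to 1.04 per gene and 0.71 to 1.28 relative to RNA. Without the count filter the Penk coding window gave 0.22. The cause of these reversals was not tested.

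The labels do not say whether replicate numbers pair the samples. Same-numbered saline and methamphetamine libraries had correlations of deviations of -0.346, -0.821 and -0.489 in RNA-seq and -0.372, -0.553 and -0.0801 in CLIP. Each such pair joins a set A and a set B library. These correlations therefore carry the set difference and cannot show whether a smaller effect is shared. With the replicate number as a block there were 0 calls in each fit, and 144 RNA-seq genes, 127 windows, 183 gene sums and 139 genes of CLIP relative to RNA had an unadjusted p under 0.05, against 276, 347, 429 and 211 without it.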
